A study of Mus musculus with 4 samples.

Results

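The genes described here encode the proteins of the cytosolic ribosome. They were taken from the authors' gene models and count tables as every gene with a RefSeq coding transcript whose symbol is Rpl or Rps with a number and at most 1 letter, or is Rplp0, Rplp1, Rplp2 or Rpsa. The rule found 80 of 24625 genes, 49 of the large subunit and 31 of the small subunit, spread over 19 chromosomes. It uses names only and no measured value. RNA came from peritoneal macrophages of C57BL/6J mice (labelled C57BL/6 on the samples), which carried no stated genetic change. The control group received standard chow and the high-fat group a diet with 60% of its calories as fat (HFD), both for 12 weeks. All mice were injected intraperitoneally with 3% thioglycollate medium, an irritant that recruits macrophages, and cells were collected 4 days later, so the results concern elicited macrophages. Each diet had 2 libraries of total RNA depleted of ribosomal RNA. The labels do not say whether libraries came from separate mice or pools, and do not give the animals' age, so p-values measure only the spread between these samples, which may be technical.

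The ribosome joins a small subunit, which binds the messenger RNA and decodes it, to a large subunit, which forms the peptide bonds and holds the tunnel through which the new chain leaves. Each ribosome carries ribosomal proteins in nearly equal numbers, and cells keep their production in step through shared promoter features and a pyrimidine-rich start of the messenger RNA that places its translation under mTOR control. In macrophages these are among the most abundant housekeeping transcripts. The mammalian genome also holds many processed pseudogenes of these genes, copies whose sequence can be nearly the same as that of the parent.

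The libraries held 39347347 to 45658551 counts on genes, and members took 3.69% and 4.15% of them with control diet and 3.55% and 3.68% with HFD. Levels below are CPM, counts scaled to a common library size, with totals corrected for composition by TMM. The macrophage markers fixed for this work were all detected (10 of 10), with a summed level of 25350 to 26450 CPM in control and 19689 to 24049 CPM in HFD libraries. Most of this sum came from Lyz2, at 22930 and 22094 CPM in control and 16399 and 20995 CPM in HFD libraries. Summed levels of other cell types' markers were far lower. Mesothelial and fibroblast markers (17 of 17 in the table) summed to 22.0 to 29.4 CPM in control and 87.6 to 178 CPM in HFD libraries, and neutrophil markers (14 of 15 in the table, with Elane at 0 in all 4 libraries) to 114 to 117 CPM in control and 68.2 to 81.7 CPM in HFD libraries. B cell markers (15 of 15) summed to 134 to 146 and 132 to 258 CPM. Dendritic cell markers (10 of 10) summed to 352 to 386 CPM in control and 285 to 293 CPM in HFD libraries, mostly from Itgax. Of these 10 genes, 8 were lower in both HFD libraries, and their median log2 fold change was -1.30. Of tested markers, 6 of 10 macrophage, 6 of 10 neutrophil, 1 of 14 B cell and 1 of 11 T and NK cell genes were also lower. Higher in both were 12 of 13 mesothelial and fibroblast, 3 B cell, 1 T and NK cell and 1 dendritic cell genes. Over all tested genes 24.9% were lower and 26.1% higher in both HFD libraries. T and NK cell markers (13 of 14) summed to 1046 to 1144 and 1121 to 1169 CPM, nearly all from Il7r, and the other 12 to 9.34, 11.8, 7.78 and 31.5 CPM in control 1, control 2, HFD 1 and HFD 2, so they were highest in HFD replicate 2. The part of these cell types in the results on ribosomal genes was not tested, and in bulk RNA fewer cells of a type and less RNA per cell cannot be told apart.

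Copies limit what a count on a ribosomal protein gene means, so shared sequence is shown first. Each member's transcript (GENCODE, GRCm38) was cut into all stretches of 50 bases, and a stretch was called shared if it also stands in a transcript of another, non-overlapping gene. The median member shared 50.1% of its stretches, and 77 of 80 members shared some with at least 1 annotated pseudogene. Rpl7a, a large subunit protein, shared stretches with 121 pseudogenes, and Rps2, at the mRNA entry of the small subunit, with 71. Alignments at more than 1 place made up 41.5%, 48.5%, 37.5% and 42.6% of all counted lines in control 1, control 2, HFD 1 and HFD 2. The first 300 coding bases of a large and a small subunit member with low log2 fold changes show how uneven this is. Capitals mark bases inside at least 1 stretch found in no other gene, and lower case marks bases inside shared stretches only.
Rpl36: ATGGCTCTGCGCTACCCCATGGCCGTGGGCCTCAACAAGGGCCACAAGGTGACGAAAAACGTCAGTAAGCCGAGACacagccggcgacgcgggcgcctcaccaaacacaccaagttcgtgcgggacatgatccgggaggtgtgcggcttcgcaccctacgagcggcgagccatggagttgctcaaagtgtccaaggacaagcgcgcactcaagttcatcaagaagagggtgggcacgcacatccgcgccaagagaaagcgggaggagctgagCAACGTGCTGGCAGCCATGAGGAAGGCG
Rps15: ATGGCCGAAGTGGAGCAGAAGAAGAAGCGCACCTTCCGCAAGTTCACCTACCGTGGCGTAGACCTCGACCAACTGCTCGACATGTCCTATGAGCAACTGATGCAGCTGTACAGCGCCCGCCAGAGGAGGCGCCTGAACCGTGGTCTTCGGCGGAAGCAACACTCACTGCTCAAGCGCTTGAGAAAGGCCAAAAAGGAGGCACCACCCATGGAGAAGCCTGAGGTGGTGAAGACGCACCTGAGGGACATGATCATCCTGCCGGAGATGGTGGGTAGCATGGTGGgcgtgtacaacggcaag
Rpl36 had 63 unshared stretches of 334 in its transcript, and 37.8% of its 315 coding bases, at both ends, lay in such stretches. Rps15 had 275 unshared stretches of 451, and 81.4% of its 435 coding bases lay in them.

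Shared sequence did not go with a low level across the family. Levels between genes are given as CPM per kb of exon. Rpl39, a small protein of the exit tunnel, was highest at 2056 CPM per kb, followed by Rps4x at 1976, Rpl10 at 1788, Rps24 at 1778 and Rpl7 at 1643 CPM per kb. The lowest levels among tested members belonged to Rpl39l at 0.543, Rpl36 at 30.4, Rplp2 at 89.5, Rpl18 at 104 and Rpl29 at 116 CPM per kb. Rpl10, which helps form the site where transfer RNA enters the catalytic centre, shared 92.1% of its stretches and still stood among the highest. Across the 74 tested members the correlation of log2 CPM per kb with the shared percentage was 0.30 (Pearson) and 0.26 (Spearman), a description over genes that share the same 4 libraries.

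**Figure D1:**
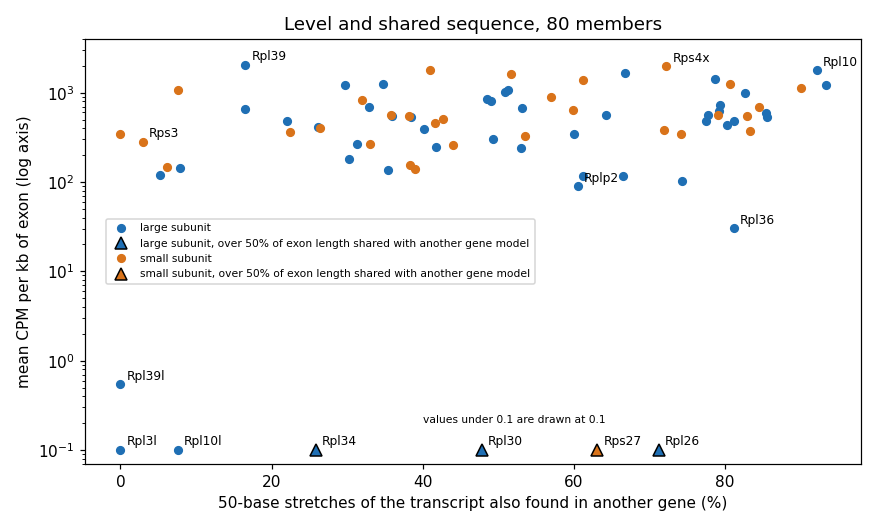
Mean level of each member over 4 libraries in CPM per kb of exon (vertical, log axis) against the percentage of its 50-base stretches also found in another gene (horizontal), coloured by subunit. Members with over 50% of their exon length inside another gene model (triangles) lie at the bottom, while Rpl10 and Rps4x are near the top in spite of much shared sequence.

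Of the 80 members, 6 did not pass the filter on low counts (at least 10 counts in enough libraries and 15 in total), and 4 of these were core proteins, not tissue-restricted copies. Rpl26 had 0 counts in all 4 libraries, Rpl30 had 1, 2, 3 and 1, Rpl34 had 1, 0, 0 and 1, and Rps27 had 0, 1, 0 and 2 (control 1, control 2, HFD 1, HFD 2, the order used throughout). Each of these shares most of its exon length with a second gene model: 95.8% of Rpl26 with Gm15772, 76.0% of Rpl30 with Gm12191, 59.9% of Rpl34 with Rpl34-ps1 and 60.0% of Rps27 with Rps27rt. The partners had 0 or 1 count, and 631099 to 843279 counted lines per library were set aside because they matched more than 1 gene. Low expression and reads set aside in this way cannot be told apart for these genes. The other members left out were paralogues: Rpl10l, a germline copy of Rpl10, with 0 counts, and Rpl3l, a striated muscle copy of Rpl3, with 3, 6, 4 and 6 counts. A count of 0 in a library allows a level of up to 0.0646 to 0.0773 CPM (3 counts, counting error only).

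The diet comparison asks which transcripts differ between macrophages of control and high-fat fed mice. Of the 74 tested members 2 passed the test. The log2 fold change was below 0 in 62 of 74, a count that dropped to 44 without control replicate 2. Rpl36 of the large subunit fell to 0.489 of its control level and Rps14 of the small subunit to 0.681. Over all 12747 tested genes 0.29% were called lower, 0.322% higher and 0.612% in either direction, and no member was called higher. The test was edgeR's quasi-likelihood test with Benjamini-Hochberg adjustment over all tested genes at a threshold of 0.05.

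Rpl36, a protein of the large subunit, lies on the + strand of chromosome 17 in mm9 (chr17:56752818-56753669, 4 exon blocks). Its level was 18.5 and 14.8 CPM in the control and 8.64 and 7.63 CPM in the HFD libraries, from 746, 573, 401 and 305 counts. Both HFD libraries were thus below both control libraries. The log2 fold change was -1.03 ± 0.16 (SE, adjusted p = 0.0358, edgeR). Without control replicate 1 the call was lost (log2 fold change -0.87), and likewise without control replicate 2 (-1.19). Calls over all genes also fell in both settings, each of which left 1 control library. The printed sequence shows how little of Rpl36 is found in no other gene, and alignments at more than 1 place were kept out of the gene counts.

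Rps14, a platform protein beside the decoding site whose loss of a copy contributes to the anaemia of the human 5q deletion, was the most abundant called member. Its level was 384 and 387 CPM in the control and 270 and 255 CPM in the HFD libraries. The gap between diets was far wider than that between replicates. The log2 fold change was -0.55 ± 0.10 (SE, adjusted p = 0.0456, edgeR). Without control replicate 1 the call was lost (log2 fold change -0.57), and so it was without control replicate 2 (-0.55). As said for Rpl36, calls over all genes fell there too. Under other settings the adjusted p lay close to the threshold, for example 0.0505 with DESeq2 size factors and 0.0526 with limma-voom (range over all alternatives 6.05e-05 to 0.180).

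Next to the called genes stood members with log2 fold changes of -0.75 to -0.50 that missed the threshold. Rps15, which lies near the decoding site and contacts transfer RNA with its tail, had 102 and 80.9 CPM in control and 63.2 and 45.8 CPM in HFD libraries (log2 fold change -0.75 ± 0.18, adjusted p = 0.124, edgeR). Rpl18 of the large subunit had 89.7 and 78.8 CPM against 58.8 and 54.7 CPM (-0.57 ± 0.10, adjusted p = 0.0501). Rps26, which contacts the mRNA upstream of the start codon, had 84.6 and 79.2 CPM against 58.9 and 55.4 CPM (-0.52 ± 0.10, adjusted p = 0.0521). In all 3 genes the diets did not overlap. Rpl8, a core protein close to the peptidyl transferase centre, had 169 and 124 CPM in control and 112 and 91.9 CPM in HFD libraries (-0.52 ± 0.16, adjusted p = 0.185). Rpl41, the shortest ribosomal protein, bridges the subunits and had 337 and 367 CPM against 259 and 238 CPM (-0.50 ± 0.10, adjusted p = 0.0666). The diets did not overlap in Rpl8 or Rpl41 either. These members were picked for their low fold changes, which makes such separation likely. Both HFD libraries were below both control libraries in 50% of tested members and in 24.9% of all tested genes.

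In the members with the highest log2 fold changes the diets overlapped, with 1 exception. Rps13 had 302 and 315 CPM in control and 315 and 360 CPM in HFD libraries (0.13 ± 0.11, adjusted p = 0.546, edgeR). Rpl27a had 558 and 626 CPM against 625 and 643 CPM (0.10 ± 0.11), Rpl27 187 and 158 CPM against 166 and 202 CPM (0.09 ± 0.13), and Rps21 144 and 163 CPM against 151 and 177 CPM (0.09 ± 0.11). Rps2 had 526 and 557 CPM against 552 and 597 CPM (0.09 ± 0.11), so the diets overlapped in each of these 5 genes. Rpl14, a large subunit protein, was the exception: 274 and 277 CPM in control and 286 and 298 CPM in HFD libraries (0.09 ± 0.09, adjusted p = 0.661). Rps6, the substrate of the S6 kinases, had 896 and 1013 CPM against 972 and 1000 CPM (0.05 ± 0.11). Rpl39l had the highest log2 fold change, 0.27 ± 0.58, but only 17, 14, 10 and 30 counts.

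**Figure D2:**
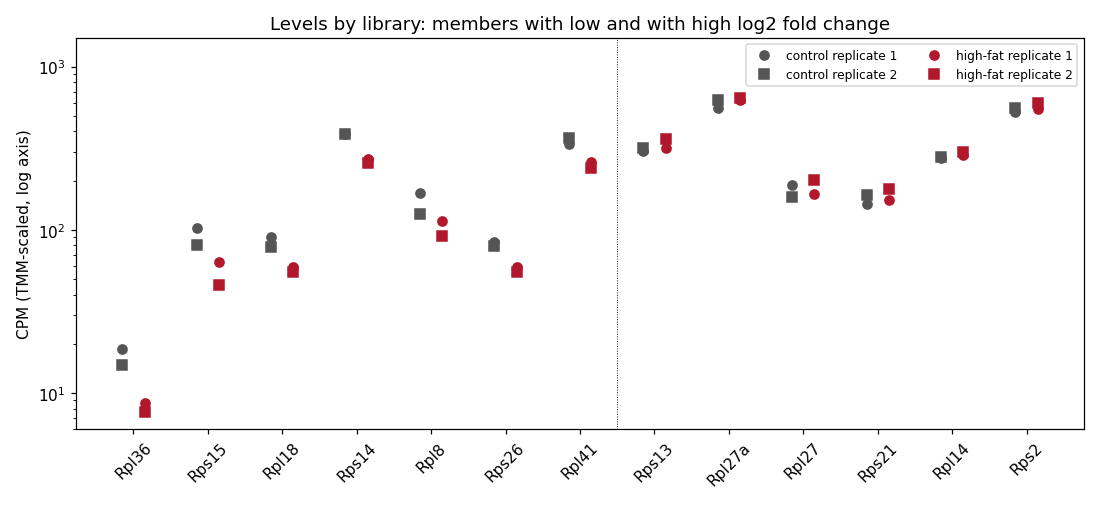
Levels in each library in TMM-scaled CPM (vertical, log axis) of 7 members with low log2 fold changes (left of the dotted line) and 6 with high values, leaving out the sparsely counted Rpl39l. Circles are replicate 1, squares replicate 2. High-fat libraries lie below control libraries for all 7 genes on the left, while those on the right mostly overlap.

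Over the whole family, 62 of 74 tested members had a log2 fold change below 0, against 50.8% of all tested genes. The median was -0.16 for the members and -0.01 for all genes, and the values ran from -1.03 to 0.27. In 37 members (50%) both HFD libraries were below both control libraries, against 24.9% of all tested genes, and in 1 member (1.35%), Rpl14, both were above, against 26.1% of all genes. An unadjusted p under 0.05 was reached by 24 members in the lower direction, against 8.46% of all genes, and by 0 in the higher direction, against 8.56%. This shift is no wider than the gap between the control replicates: the members' median deviation from their own mean (log2) was 0.00 in control 1, 0.16 in control 2, -0.13 in HFD 1 and -0.02 in HFD 2. Control replicate 2 held the highest level of 47 members and control replicate 1 that of 19. Control replicate 2 also had the largest share of alignments at more than 1 place (48.5%), whose part in this was not tested. Without control replicate 2 the members below 0 numbered 44 of 74 and their median was -0.07. Without the other libraries the count was 67 (control replicate 1), 53 (HFD replicate 1) and 68 (HFD replicate 2).

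**Figure D3:**
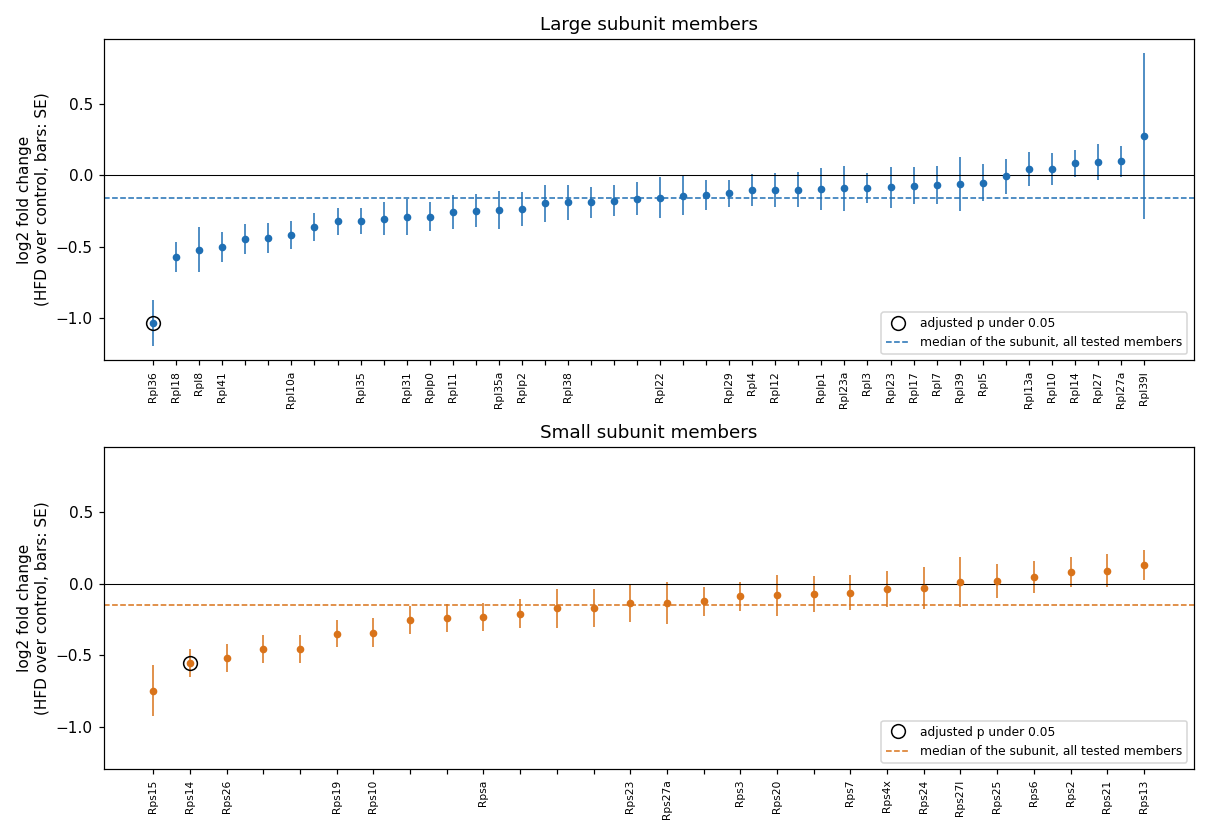
Log2 fold change, high-fat over control, of members of the large and small subunits that passed the filter, in rising order, with standard errors as bars and the names of members described individually. The dashed lines at -0.16 and -0.15 are the subunit medians over all tested members, and the circles mark the members with an adjusted p under 0.05, Rpl36 and Rps14.

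The subunits were compared by description only. The median log2 fold change was -0.16 in the large subunit, with 38 of 44 tested members below 0, and -0.15 in the small subunit, with 24 of 30 below 0. Both HFD libraries were below both control libraries in 22 large subunit and 15 small subunit members. That was 50% in each subunit, against 24.9% of all tested genes. An unadjusted p under 0.05 (edgeR) in the lower direction was reached by 13 large and 11 small subunit members, against 8.46% of all genes. Each subunit had 1 called member. Summed over members, the large subunit stood at 21925, 25291, 20842 and 22260 CPM and the small subunit at 14620, 16800, 14089 and 15024 CPM. For the large subunit the sums of the diets overlapped, and for the small subunit as well.

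The ratio of the sums was steadier than the sums themselves. It was 1.4997 and 1.505 in the control and 1.479 and 1.482 in the HFD libraries, a difference of -0.022. It was smaller once members whose exons overlap another gene model were left out, such as Rpl5, which overlaps Fam69a, and Rpl31, which overlaps Tbc1d8. Over the 69 members without such an overlap the ratio was 1.393 and 1.397 in the control and 1.376 and 1.393 in the HFD libraries, a difference of -0.010 with HFD replicate 2 level with control replicate 1. With 2 libraries a diet an exact permutation test cannot pass, so none was made.

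**Figure D4:**
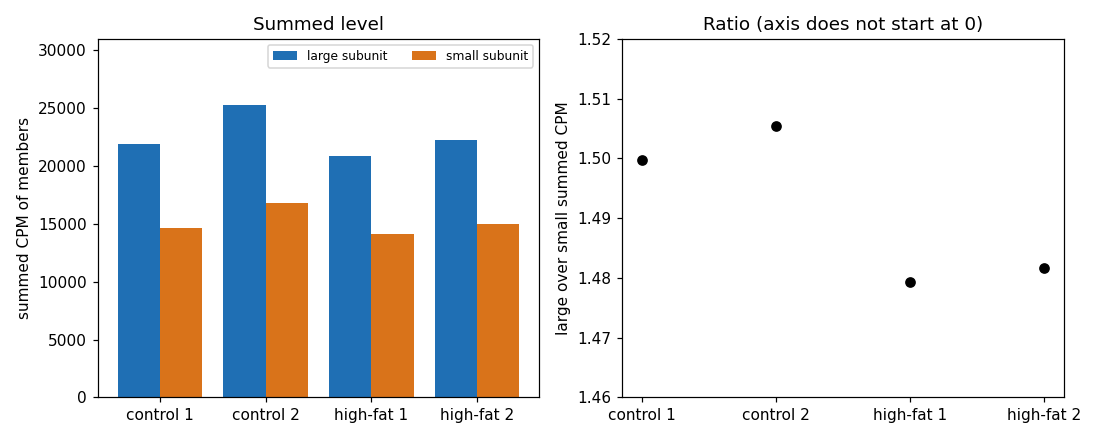
Left, summed CPM of large subunit and small subunit members in each library, with bars starting at 0. Right, the large to small ratio in each library, from 1.479 to 1.505, on an axis that does not start at 0.

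By role, none of the stalk proteins that recruit elongation factors passed the test. Rplp0, the base of the stalk, had 375 and 360 CPM in control and 313 and 288 CPM in HFD libraries (log2 fold change -0.29 ± 0.10, adjusted p = 0.206, edgeR), and Rplp2 had 42.7 and 42.7 CPM against 32.3 and 40.3 CPM (-0.23 ± 0.12). Rplp1 (-0.10 ± 0.15) and Rpl12 at the stalk base (-0.10 ± 0.12) overlapped between diets. Among other proteins of the large subunit, Rpl10a of the L1 stalk had 443 and 471 CPM against 349 and 336 CPM (-0.42 ± 0.10, adjusted p = 0.0988, edgeR). Rpl3 (-0.09 ± 0.11) and Rpl4 (-0.10 ± 0.11), which reach into the catalytic core and the tunnel, were separated between diets by small margins, and Rpl10 (0.05 ± 0.11) was not separated.

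The proteins that bind Mdm2 when ribosome assembly fails did not pass the test. Rpl11 had 367 and 431 CPM in control and 310 and 359 CPM in HFD libraries (-0.25 ± 0.12), while its partner Rpl5 in the 5S particle (-0.05 ± 0.13) and Rpl23 (-0.08 ± 0.14) overlapped. Around the exit tunnel, Rpl35 had 201 and 196 CPM against 160 and 158 CPM (-0.32 ± 0.09, adjusted p = 0.149, edgeR) and Rpl31 855 and 1055 CPM against 767 and 794 CPM (-0.29 ± 0.13). Rpl23a, Rpl39 and Rpl17, also at the tunnel exit, lay between -0.09 and -0.06 and overlapped. Rpl13a, which after release from the ribosome takes part in the interferon-induced GAIT complex of macrophages, stood at 460 and 526 CPM against 476 and 541 CPM (0.04 ± 0.12).

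In the small subunit, Rps10 of the head had 208 and 234 CPM in control and 179 and 170 CPM in HFD libraries (-0.34 ± 0.10, adjusted p = 0.157, edgeR), and Rpsa, also known as the laminin receptor, 520 and 516 CPM against 440 and 442 CPM (-0.23 ± 0.10). Rps3 (-0.09 ± 0.10), Rps20 (-0.08 ± 0.14) and Rps23 (-0.14 ± 0.13), which surround the mRNA channel and the decoding site, were closer to 0. Rps27a, made as a fusion with ubiquitin, had 686 and 862 CPM against 639 and 772 CPM (-0.13 ± 0.14). Of the genes mutated in Diamond-Blackfan anaemia, Rps19 had 237 and 226 CPM against 185 and 178 CPM (-0.35 ± 0.09, adjusted p = 0.130), with no overlap. Rpl35a (-0.24 ± 0.13), Rps7 (-0.06 ± 0.12) and Rps24 (-0.03 ± 0.15) did not pass. The same held for Rpl22 (-0.15 ± 0.14), Rpl38 (-0.19 ± 0.12) and Rps25 (0.02 ± 0.12), studied for roles in the translation of particular messages. The paralogue Rps27l, a p53 target, had 138 and 198 CPM against 155 and 185 CPM (0.01 ± 0.18).

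The GC content of the transcripts moved with the fold changes. Members with more than 56% GC had a median log2 fold change of -0.33 (12 genes), against -0.21 for all tested genes of that range, and 9 of the 12 were lower in both HFD libraries against 40.7% of all genes. Those of up to 48% GC had a median of -0.11 (14 genes), against 0.10 for all genes of that range, with 21.4% lower in both libraries against 14.2%. The members' median was below that of all genes in each of the 4 GC ranges compared. The correlation of log2 fold change with GC content was -0.47 (Pearson, 74 members) and -0.40 (Spearman). Rpl36, at 60.8% GC, was the richest member. By library, the members' deviation from their own mean correlated with GC content at 0.56 in control 1, -0.04 in control 2, -0.02 in HFD 1 and -0.50 in HFD 2, so the trend lay in 1 library of each diet; over 12148 genes the values were 0.43, -0.04, -0.05 and -0.32.

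With the GC trend removed in each library, the members' median stayed at -0.16 in either subunit, 61 of 74 were below 0 (52.8% of all genes), and the called members were Rpl36 (-0.77, adjusted p = 0.0397, edgeR) and Rps26 (-0.58, adjusted p = 0.0397), against 0.329% of all genes called lower and 0.206% called higher, while Rps14 missed the threshold (-0.47, adjusted p = 0.0601). With trends of both GC content and exon length removed, Rpl37 was the member called, and Rpl36 had -0.81 (adjusted p = 0.0628). With the exon length trend alone removed, 55 members were below 0 and the medians were -0.10 (large) and -0.09 (small). The log2 fold change did not go along with shared sequence (Pearson -0.02, Spearman 0.03, 74 members).

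**Figure D5:**
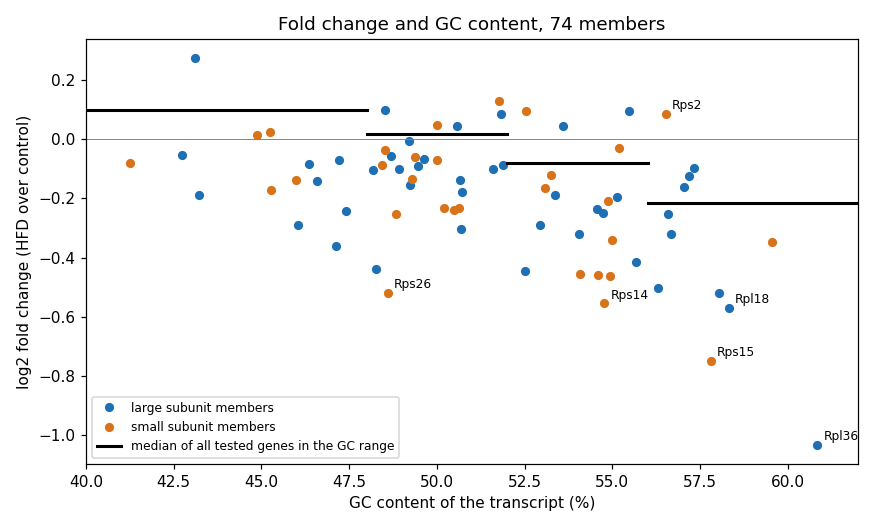
Log2 fold change, high-fat over control, of the 74 tested members (vertical) against the GC content of the transcript in percent (horizontal), coloured by subunit, with the median of all tested genes in 4 GC ranges as black lines. Members become lower with rising GC content, as the black lines do from 0.10 to -0.21.

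Promoters of ribosomal protein genes were read where the RefSeq table (GRCm38.p6) holds them, which was so for 60 of the 80 members, with windows of 250 bases before to 50 after the start. Each motif was searched on both strands. Shares are of genes with a match in any of their windows, and the other genes are all 26965 with a window, expressed here or not. The ETS family element CCGGAAG stood in 41.7% of the members and in 9.86% of the other genes. The tract CTCTTTC, like the pyrimidine-rich start of these messages, stood in 28.3% against 9.24%, the YY1 element AAGATGGC in 8.33% against 3.18% and the TATAAA box in 10% against 15.7%. The windows below, from 80 bases before to 20 after the start, belong to members near the low end (Rps15, Rpl18, Rps26, Rpl41) and the high end (Rps13, Rpl27a) of the fold changes, with a match to any of the 4 motifs in capitals.
Rps15, chr10:80292351-80292450, + strand: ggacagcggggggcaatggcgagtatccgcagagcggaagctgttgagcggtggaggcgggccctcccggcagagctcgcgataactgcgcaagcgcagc
Rpl18, chr7:45717991-45718090, + strand: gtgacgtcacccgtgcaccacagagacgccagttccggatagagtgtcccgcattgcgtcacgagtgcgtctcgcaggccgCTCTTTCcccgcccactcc
Rps26, chr10:128626487-128626586, - strand: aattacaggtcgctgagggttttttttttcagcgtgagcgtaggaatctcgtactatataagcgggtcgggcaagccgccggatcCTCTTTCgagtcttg
Rpl41, chr10:128549149-128549248, - strand: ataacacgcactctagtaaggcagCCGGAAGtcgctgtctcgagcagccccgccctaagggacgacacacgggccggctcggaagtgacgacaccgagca
Rps13, chr7:116334171-116334270, - strand: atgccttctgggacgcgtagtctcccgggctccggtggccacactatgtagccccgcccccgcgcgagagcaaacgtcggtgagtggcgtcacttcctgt
Rpl27a, chr7:109519115-109519214, + strand: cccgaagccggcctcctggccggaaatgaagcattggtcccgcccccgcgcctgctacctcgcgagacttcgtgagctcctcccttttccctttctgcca
In Rpl18 and Rps26 the pyrimidine tract lies within the first 20 bases of the transcript, and in Rpl41 the ETS element lies upstream. The windows of Rps15, Rps13 and Rpl27a hold no exact match to the 4 motifs, so windows without an exact match occur at both ends. Only exact matches were counted: Rpl27a has a pyrimidine-rich run around its start that does not hold CTCTTTC. Genes counted as without CTCTTTC can thus still have a pyrimidine-rich start. Over all members with a window and a test, the median log2 fold change was -0.19 with CTCTTTC (16 genes) and -0.10 without (39 genes), and -0.19 with CCGGAAG (23 genes) and -0.14 without (32 genes). No test was made of these differences.

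Ribosomal genes that the naming rule leaves out gave a mixed picture. Fau, a small subunit protein fused to a ubiquitin-like domain, had 325 and 346 CPM in control and 290 and 258 CPM in HFD libraries (-0.29 ± 0.10, adjusted p = 0.216, edgeR). Gnb2l1, the scaffold protein Rack1 on the small subunit, had 771 and 784 CPM against 646 and 637 CPM (-0.28 ± 0.10, adjusted p = 0.231). The diets did not overlap in Fau or Gnb2l1. Rpl36al (-0.02 ± 0.11), Rpl7l1 (-0.05 ± 0.09) and Rpl22l1 (0.17 ± 0.17) overlapped, as did Rps4l (-0.43 ± 0.47), which has no coding transcript in the gene models and 11 to 20 counts.

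Genes for building and running ribosomes are given beside the members, with no test of the difference between the lists. Of 40 genes for ribosome biogenesis, 22 had both HFD libraries above both control libraries (26.1% of all genes) and 1 had both below (24.9% of all genes). The log2 fold change was above 0 in 29 of the 40, and the median was 0.16. None was called by edgeR, with 8 at an unadjusted p under 0.05, all higher (8.56% of all genes). Nop58, a core protein of the box C/D particles that guide ribosomal RNA methylation, had 101 and 111 CPM in control and 131 and 155 CPM in HFD libraries (0.43 ± 0.11, adjusted p = 0.115, edgeR). Utp14a, of the small subunit processome, had 51.5 and 51.9 CPM against 60.6 and 64.6 CPM (0.28 ± 0.09, adjusted p = 0.203). Nop58 has 43.0% GC and Utp14a 46.8%, which lies in the range where all tested genes had a median of 0.10. Other genes of the list that were higher in both HFD libraries, such as Rrs1 and Rrp1b, have more GC. The part of GC content in this list was not tested.

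Over all tested genes, to be set beside the lists below, 26.1% were higher and 24.9% lower in both HFD libraries. An unadjusted p under 0.05 (edgeR) was reached by 8.56% in the higher and 8.46% in the lower direction. Of 25 translation factors, 8 were higher and 7 lower in both HFD libraries. Their median was 0.01 and 0 were called by edgeR (3 higher and 4 lower at an unadjusted p under 0.05). The cap-binding protein Eif4e had 226 and 247 CPM against 300 and 338 CPM (0.43 ± 0.11, adjusted p = 0.106), and Eif2s2, a subunit of the factor that brings the initiator transfer RNA, 227 and 237 CPM against 289 and 335 CPM (0.43 ± 0.11, adjusted p = 0.109). Of 25 tested genes of RNA polymerases I and III, 8 were higher and 8 lower in both HFD libraries, with a median of 0.00 and 0 called (2 in each direction at an unadjusted p under 0.05). The polymerase III subunit Polr3g had a log2 fold change of 0.33 ± 0.14. Of 23 tested genes for the control of ribosomal protein synthesis, 5 were higher and 9 lower, with a median of -0.10 and 0 called (2 higher and 3 lower at an unadjusted p under 0.05). Tsc1, which restrains mTOR, had 54.1 and 48.4 CPM against 41.2 and 37.2 CPM (-0.39 ± 0.11, adjusted p = 0.138), and the kinase gene Rps6ka1 27.1 and 22.2 CPM against 18.6 and 17.3 CPM (-0.46 ± 0.14, adjusted p = 0.159).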

How the data were processed

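Each of the 4 libraries has a deposited table of raw read counts per gene, whole numbers without normalization. TopHat2 2.0.10, Cufflinks 2.1.1, HTSeq and the mm9 build are named, per the submitters' processing notes; settings, strand included, were not given in the sources used here. Gene models were deposited by the authors. Summary lines (no gene) stayed out of totals: reads in no gene model made up 13.5% to 15.0% of counted lines.

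Genes were filtered with filterByExpr (minimum count 10, total 15) and tested with edgeR 4.0.16 (R 4.3.3) by quasi-likelihood with robust fitting and TMM, diet as the only term and 2 residual degrees of freedom; the fit was tested on simulated data. P-values were adjusted over 12747 genes. Standard errors are |log2 fold change| over the square root of F. limma 3.58.1 and DESeq2 1.42.0 gave alternatives. Trends with GC content or exon length were removed by a loess offset per library (span 0.3). Fold changes printed as a share of control are ratios of mean CPM. Replicate pairs differed far beyond sampling noise (chi-square per degree of freedom 33.8 and 34.9), so each library counted once.

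The members and lists were chosen with earlier results of these data known. Named are called members, the 8 highest and 8 lowest log2 fold changes, the 5 highest and 5 lowest levels per kb, members listed by role, the paralogues, ribosomal genes outside the naming rule, for other lists the called genes or the 2 with the smallest p, and the 5 genes most like the members. A few genes picked this way are left unreported, although every count and median includes them. Rpl7a, Rpl37, the overlapped members and the GC values of Nop58 and Utp14a were chosen after their values were seen, as were the GC corrections.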

Additional observations from a re-analysis of the deposited data

Results flagged for a closer look

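The row of the pseudogene Rpl14-ps1 is no member but held signal in every library: 4.32 and 4.53 CPM in control and 4.74 and 4.83 CPM in HFD libraries, with an HFD mean of 4.78 CPM, above the control level in both libraries. Its log2 fold change was 0.11 ± 0.18 (adjusted p = 0.774, edgeR), so the difference did not pass the test. Rpl14 was the member with both HFD libraries above both control libraries, which also held for 26.1% of all tested genes. Of 6 other pseudogene rows in the table, the diets did not overlap in Rps15a-ps6 only, with 1.07 and 1.16 CPM in control and 0.797 and 0.726 CPM in HFD libraries. These came from 43, 45, 37 and 29 counts (-0.54 ± 0.32, adjusted p = 0.415, edgeR). Rpl31-ps12 had 1.61 and 2.04 CPM in control and 1.21 and 1.68 CPM in HFD libraries and overlapped. Rplp2-ps1 and Rpl34-ps1 had 0 counts in every library, and Rps15a-ps4 and Rps19-ps3 had 7 to 24, so these rows could hardly show a difference. Over all tested genes 24.9% were lower in both HFD libraries.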

How the results depend on the processing

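Calls were fragile and the direction of the medians was kept: both subunit medians stayed below 0 in all 18 alternatives. Leaving out a library gave 0 to 11 members called (large subunit 0 to 5, small subunit 0 to 6), medians of -0.273 to -0.078 (large) and -0.253 to -0.036 (small), and 0 to 5 other translation genes called. No member was called with either control library left out, and most were called without HFD replicate 1. Calls over all genes likewise fell without either control library and rose without either HFD library. Each of these fits left 1 library in a diet. Against 2 members called, 1 in each subunit, no filter gave 11 (6 large, 5 small) and DESeq2's Wald test 15 (8 large, 7 small). Calls over all genes rose too, from 78 of 12747 to 522 of 17380 with no filter and 366 of 12747 with the Wald test. The members called were 2 of 74 in the main fit, 11 of 78 with no filter and 15 of 74 with the Wald test. In each case this was a larger share than of all genes. Whether the rise was particular to the family was not tested. DESeq2 size factors, a CPM filter, limma-voom, no robust fitting, exon length removed, and GC content with length removed gave 1 member each, 0 of them in the small subunit; the cause was not tested. Of the other translation genes, 0 were called, but 1 with library totals, 5 with no filter, 4 with DESeq2's Wald test and 1 with the replicate block. The large to small ratio differed by -0.010 without overlapping members. The labels do not say that a replicate number marks a shared batch or day, and deviations of same-numbered libraries correlated at 0.089 over all genes and 0.25 over members, so the block is an alternative only. With the replicate block 5 members were called (2 large, 3 small), adding Rps15 (adjusted p = 0.0343, edgeR), Rpl18 (0.0421) and Rps26 (0.0481). Over all 12747 genes the block called 113, against 78 without it. Of the single-gene values, 25 became called and 12 lost the call. No gene called in either setting changed sign, but 53 values of 24 members called in neither did, 16 of them without control replicate 2. The large minus small difference of medians went from -0.01 to 0.03 with GC content and length trends removed. Among tested members Rpl39l had the fewest counts.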

Other observations

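Among 7134 genes outside the family with a mean of at least 10 CPM, those most like the members' mean over the 4 libraries by Pearson correlation on the log2 CPM scale were Asb1, Mir17hg, Snord17, Coa3 and Rprd2, all at 0.998 or above. The host gene of the miR-17 cluster, Mir17hg, had 29.9 and 34.1 CPM in control and 24.1 and 26.7 CPM in HFD libraries, and the box C/D RNA Snord17 had 1298 and 1715 CPM against 868 and 1093 CPM. Of the 7134 genes, 143 exceeded 0.95, and with 4 libraries such a ranking is a description only.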
